A study of Homo sapiens with 5 samples.

Results

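A set of 10 genes that are switched on through the ERK kinase pathway were followed across the 5 arrays of a study of c-Kit and SCL in TF-1 cells. The genes were EGR1, FOS, JUNB, IER2, IER3, DUSP5, DUSP6, SPRY2, ETV5 and PHLDA1, and every probe set that the platform's annotation assigned to one of these symbols alone was taken, which gave 19 probe sets for the 10 genes out of 22215 probe sets and 11963 genes. TF-1 is an established human erythroleukaemia line that depends on GM-CSF and serves as a model of erythroid progenitors. Cells carried a retroviral MSCV vector with GFP, either with DbSCL, a form of the transcription factor SCL that does not bind DNA (mutant SCL below), or empty (vector below). The groups were mutant SCL cells given Steel factor (SF), which binds and activates c-Kit, a receptor tyrosine kinase; mutant SCL cells given erythropoietin (Epo), vector cells given SF, vector cells given Epo and vector cells given GM-CSF. All cells were first kept without growth factor overnight and were harvested 6 h after the cytokine was added, with SF at 20 ng/mL and GM-CSF at 5 ng/mL. The labels give no dose for Epo and do not say whether the transduced cells were clones or pools. Each group had 1 Affymetrix array, so no comparison has a replicate check and no p-value was computed. No group was left unstimulated, so induction by any cytokine was not measured. None of the 10 genes differed by 2-fold in any of 6 comparisons between arrays. The widest difference was that of DUSP5, an ERK phosphatase gene, whose signal was lower with mutant SCL than with vector under SF (log2 difference -0.41) and under Epo (-0.68).

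In the ERK pathway, a receptor recruits GRB2 and SOS proteins, which load RAS with GTP. RAS then starts the kinase relay of RAF, MEK and ERK. Active ERK phosphorylates ELK1 and related factors that sit with SRF on serum response elements, and this turns on immediate early genes without new protein synthesis. Their transcripts usually peak within the first hour and then decline, so a reading at 6 h falls after that peak. A slower set of targets feeds back on the pathway: dual-specificity phosphatases dephosphorylate ERK, and Sprouty proteins restrain signalling from receptor to RAS.

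The promoters of the immediate early transcription factor genes and of IER2 are shown to look for kinds of element through which such genes are known to be induced. The readings of these genes follow below. RefSeq windows on GRCh38.p14, from 250 bases before to 50 after the annotated start, were found for 7 of the 10 genes. Capitals mark 3 motifs searched on both strands, which did not overlap each other in these 4 windows: the CArG box (the core of the serum response element), TGACG (the core of the cyclic AMP response element) and CCGGAA (an ETS core). EGR1 lies at chr5:138465229-138465528, FOS at chr14:75278578-75278877, JUNB at chr19:12791236-12791535 and IER2 at chr19:13150161-13150460, all on the plus strand.
EGR1: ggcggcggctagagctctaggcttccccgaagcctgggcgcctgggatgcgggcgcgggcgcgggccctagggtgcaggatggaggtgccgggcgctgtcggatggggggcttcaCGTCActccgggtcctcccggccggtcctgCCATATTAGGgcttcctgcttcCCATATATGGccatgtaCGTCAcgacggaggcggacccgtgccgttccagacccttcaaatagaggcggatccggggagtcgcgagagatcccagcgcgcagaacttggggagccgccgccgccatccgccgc
FOS: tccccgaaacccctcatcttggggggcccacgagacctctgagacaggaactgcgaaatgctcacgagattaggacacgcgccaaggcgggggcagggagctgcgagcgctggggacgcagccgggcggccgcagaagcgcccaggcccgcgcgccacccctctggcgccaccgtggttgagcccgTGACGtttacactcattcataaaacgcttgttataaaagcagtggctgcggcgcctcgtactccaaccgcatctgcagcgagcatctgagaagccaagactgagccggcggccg
JUNB: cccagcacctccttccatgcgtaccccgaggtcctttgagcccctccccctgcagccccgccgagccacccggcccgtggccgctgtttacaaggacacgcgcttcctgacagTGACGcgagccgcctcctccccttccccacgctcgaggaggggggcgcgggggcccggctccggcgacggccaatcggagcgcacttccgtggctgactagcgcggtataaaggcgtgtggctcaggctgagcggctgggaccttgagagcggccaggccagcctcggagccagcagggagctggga
IER2: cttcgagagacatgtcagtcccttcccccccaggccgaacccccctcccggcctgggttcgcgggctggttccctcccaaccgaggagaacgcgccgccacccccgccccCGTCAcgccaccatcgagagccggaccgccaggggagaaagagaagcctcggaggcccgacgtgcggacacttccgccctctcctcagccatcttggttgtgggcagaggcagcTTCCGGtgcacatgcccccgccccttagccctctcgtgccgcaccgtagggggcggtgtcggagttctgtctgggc
The EGR1 window held 2 CArG boxes, which began 105 and 83 bases before the start, and 2 copies of the TGACG core. The CArG box was in 1.29% of 35116 such windows and, of the 7 genes with a window, in EGR1 alone. Bases more than 250 before the start were not searched, so a gene without a match here may carry the element further upstream. The TGACG core occurred in 24.6% of all windows and in 5 of the 7 genes, among them FOS, JUNB and IER2. The CCGGAA core occurred in 17.2% of all windows and in 3 of the 7 genes, among them IER2, where it began 26 bases before the start. The percentages are per window, whereas a gene was counted if any of its windows held the motif. SPRY2, counted for TGACG and CCGGAA, had several windows and held them in only 1. A match is a description of these letters and not evidence of a bound site.

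Signals are log2 values as the authors deposited them, and a difference of 1 is 2-fold. Values below 4.45 were treated as being at a floor, set at the 40th percentile of all values without the array controls. Of the 19 probe sets, 9 were above the floor on all 5 arrays, 1 on some arrays and 9 on none. By gene, taking the brightest probe set, 7 of 10 were above it everywhere, FOS on 1 array, and DUSP6 and SPRY2 on no array. The floor is no proof of expression. All 5 erythroid markers that could be read (GATA1, KLF1, EPOR, TFRC and ALAS2) were above it on every array. So were 5 of 6 progenitor and myeloid markers (CD34, KIT, CSF2RA, CSF2RB and SPI1), with MPO above it on 4 arrays. The same held for 4 of 5 lymphoid markers. Of 6 fibroblast and epithelial markers, COL1A1 (highest reading 7.32) and COL1A2 (highest reading 4.95) were above it on every array. EPCAM, CDH1, KRT19 and COL3A1 were at or below it throughout. Their part in the readings was not tested. The spread of a single difference, estimated without replicates from how the mutant SCL difference varied between SF and Epo over all genes, was 0.13 to 0.24 depending on signal. A difference shared by both mutant SCL arrays cancels in this estimate, so the spread does not cover it. Readings that are exactly equal on several arrays can also make the spread smaller. Control readings varied between the arrays: the hybridization controls ran from 9.58 to 10.57, the 28S ribosomal RNA signal from 5.80 to 7.82, and the beta-actin 3' minus 5' difference, which grows as RNA is shortened, from 1.89 to 3.33. In bulk RNA, fewer cells expressing a gene and less of its RNA per cell cannot be told apart.

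Many readings were exactly equal on several arrays. Of the 19 probe sets, 13 (68.4%) held the same value on at least 2 arrays, against 58.6% of all probe sets, and 9 (47.4%) held one value on 3 or more arrays, against 25.0%. Equal values were more frequent among all probe sets that were above the floor on no array (70.6%) than among the others (51.7%). Differences of exactly 0 given below come from such equal values, and are not a measured absence of change.

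EGR1 encodes a zinc finger transcription factor and is a standard readout of ERK activity. Its brighter probe set (201693_s_at) read 4.88 in mutant SCL cells under both SF and Epo, against 4.88 under SF, 4.88 under Epo and 4.80 under GM-CSF in vector cells. Its other probe set (201694_s_at) was below the floor and read 4.12 on the same 4 arrays and 4.11 under GM-CSF. EGR1 was thus the flattest of the 7 genes above the floor, with a range of 0.08 over the arrays, and of the 7918 genes that exceeded the floor everywhere, 95.7% had at least that range.

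FOS encodes a partner of JUN proteins in the transcription factor AP-1. Its probe set (209189_at) read 4.38 in mutant SCL cells under both SF and Epo, against 4.38 under SF, 4.20 under Epo and 4.53 under GM-CSF in vector cells. Only the GM-CSF array was above the floor.

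JUNB encodes another AP-1 subunit. Its probe set (201473_at) read 6.51 in mutant SCL cells with SF and 6.07 with Epo, against 6.26 under SF, 6.27 under Epo and 6.41 under GM-CSF in vector cells. The 2 mutant SCL arrays were the highest and the lowest of the 5, and the 3 vector arrays lay between them.

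IER2 encodes a nuclear protein of the immediate early class. Its probe set (202081_at) read 8.18 in mutant SCL cells with SF and 8.35 with Epo, against 8.18 under SF, 8.07 under Epo and 7.93 under GM-CSF in vector cells. It was lowest under GM-CSF and highest in mutant SCL cells under Epo.

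IER3, a stress- and growth factor-inducible gene that modulates ERK activity and survival, had the reverse order for GM-CSF. Its probe set (201631_s_at) read 5.43 in mutant SCL cells with SF and 5.54 with Epo, against 5.54 under both SF and Epo and 5.77 under GM-CSF in vector cells. The GM-CSF array was highest, and 3 arrays held one value.

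PHLDA1, which encodes a pleckstrin homology-like domain protein, was read by 5 probe sets, of which 4 were below the floor on every array. The brightest (217998_at) read 5.53 in mutant SCL cells with SF and 5.46 with Epo, against 5.46 under SF, 5.31 under Epo and 5.72 under GM-CSF in vector cells. The GM-CSF array was again the highest. None of the 4 faint probe sets had its highest value there alone: their GM-CSF readings lay between 2.70 and 3.69, and 218000_s_at was lowest there and highest, at 4.11, in mutant SCL cells under SF.

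DUSP5 encodes a nuclear phosphatase that acts on ERK. Its only probe set (209457_at) read 5.69 in mutant SCL cells with SF and 5.71 with Epo, against 6.10 under SF, 6.39 under Epo and 6.03 under GM-CSF in vector cells. Both mutant SCL arrays lay below all 3 vector arrays. Its range of 0.70 over the arrays was the widest of the 7 genes above the floor, and 17.0% of the 7918 genes had at least that range.

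DUSP6 encodes the cytoplasmic ERK phosphatase MKP3. All 3 of its probe sets were below the floor on every array, so no difference was drawn from them. The probe set 208891_at read 3.31 in mutant SCL cells with SF and 3.33 with Epo, against 3.81 under SF, 3.63 under Epo and 3.21 under GM-CSF in vector cells. The probe set 208892_s_at read 3.28 with mutant SCL under SF and 3.36 under Epo, against 3.48, 3.41 and 3.46 in vector cells under SF, Epo and GM-CSF. Both mutant SCL arrays were thus below all 3 vector arrays in 208892_s_at, while the low GM-CSF reading of 208891_at was not repeated. The third and brightest probe set, 208893_s_at, read 4.38 in mutant SCL cells under both cytokines. In vector cells it read 4.35, 4.38 and 4.44 under SF, Epo and GM-CSF, so its mutant SCL readings were not below all 3 vector readings.

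SPRY2 encodes a Sprouty inhibitor of receptor tyrosine kinase signalling. Its probe set (204011_at) was below the floor throughout, reading 3.76 in mutant SCL cells with SF and 3.75 with Epo, against 3.78 under SF, 3.90 under Epo and 3.60 under GM-CSF in vector cells.

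ETV5 encodes an ETS transcription factor of the PEA3 group, whose genes are induced by ERK signalling in many tissues. Its 3 probe sets were all above the floor. The brightest (203349_s_at) read 7.87 in mutant SCL cells with SF and 7.66 with Epo, against 8.08 under SF, 7.86 under Epo and 7.86 under GM-CSF in vector cells. The second (203348_s_at) read 5.52 in mutant SCL cells under both cytokines, against 5.70 under SF, 5.23 under Epo and 5.67 under GM-CSF in vector cells. The third (216375_s_at) read 5.29 in mutant SCL cells with SF and 5.19 with Epo, against 5.40 under SF, 5.29 under Epo and 5.29 under GM-CSF in vector cells. Vector cells under SF had the highest reading of all 3 probe sets, while the lowest was mutant SCL under Epo for the brightest and the third and vector Epo for the second.

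**Figure D1:**
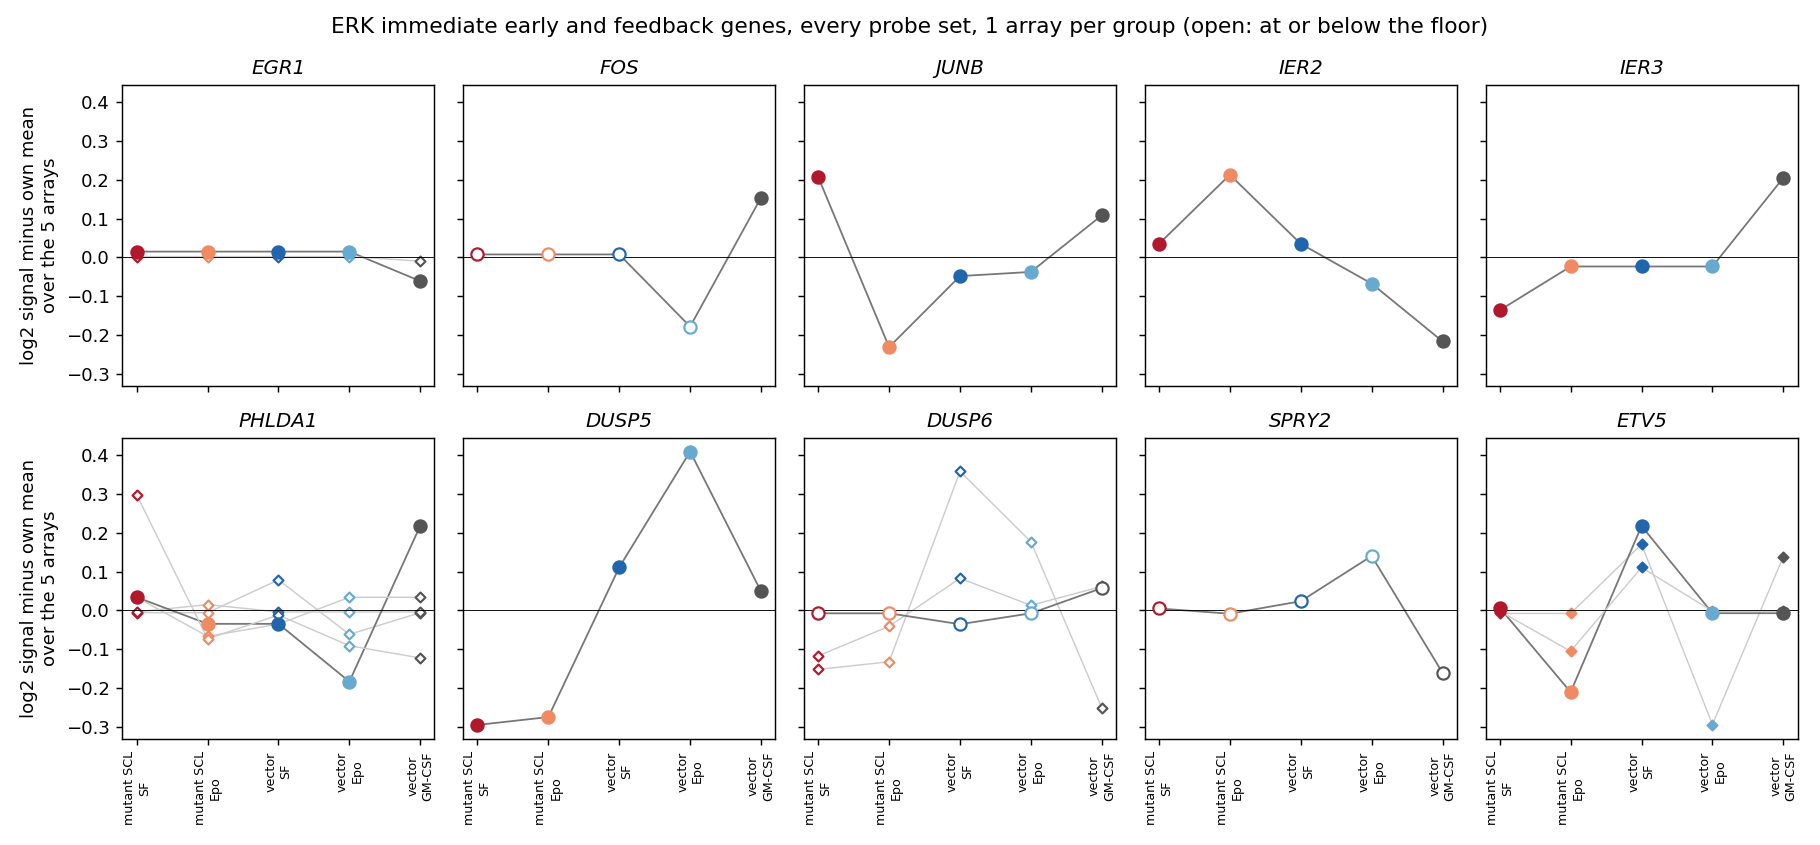
Log2 signal of each probe set minus its own mean over the 5 arrays (vertical axis), for the 10 genes, with 1 point per array (horizontal axis). Large circles are the brightest probe set of a gene, small diamonds its other probe sets, and open symbols are values at or below the floor of 4.45. Among probe sets above the floor, DUSP5 is the one whose 2 mutant SCL arrays both lie below its 3 vector arrays, while EGR1 is almost flat.

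Cells with mutant SCL were set against vector cells under the same cytokine to look for genes regulated by SCL. Under SF, DUSP5 was lower with mutant SCL by a log2 difference of -0.41 and ETV5 by -0.21, IER3 gave -0.11, JUNB was higher by 0.25, PHLDA1 gave 0.07, and EGR1 and IER2 gave 0. None of the 7 genes compared reached 2-fold, where 0.0118% of 8450 genes were 2-fold or more higher and 0.343% lower. The median of the 7 was 0, as was that of all genes.

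Under Epo, DUSP5 was lower with mutant SCL by -0.68, which is 1.60-fold, and ETV5 by -0.20, while IER2 was higher by 0.28. JUNB gave -0.19, PHLDA1 0.15, and EGR1 and IER3 gave 0. Again 0 of 7 reached 2-fold, against 0.0957% of 8359 genes higher and 0.275% lower. At 1.5-fold 1 of the 7 was lower, DUSP5, and 0 were higher, where 2.78% of all genes were lower and 0.694% higher. Of all genes compared under Epo, 1.51% were at least as low as DUSP5, and under SF 8.30% were.

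As deposited, DUSP5 and ETV5 were the 2 of 7 genes below 0 under both cytokines, and PHLDA1 was the 1 above 0 under both. Over all genes 25% were below 0 under both and 23.6% above, so 2 of 7 is near the share of all genes. These counts depended on the processing. EGR1 was also below 0 under both with quantile, median and loess normalization (-0.07 to -0.02), and IER3 with median and loess (-0.17 to -0.03). IER2 was above 0 under both with quantile normalization (0.14 and 0.40) and with loess (0.10 and 0.36). The shares of all genes in those settings were not computed. For size, 2.01% of 8272 genes were at least as low under both cytokines as the smaller DUSP5 difference, and 7.81% were at least as low as the smaller ETV5 difference. The DUSP5 differences exceeded the estimated spread at that signal, 0.18, under both cytokines. Those of the brightest ETV5 probe set did not exceed theirs, 0.23. JUNB also exceeded its spread, 0.191, under both cytokines, but in opposite directions (0.254 and -0.193). IER2 exceeded its spread, 0.23, under Epo (0.28). The second ETV5 probe set gave -0.18 under SF and 0.29 under Epo, both beyond its spread of 0.17, and the third gave -0.11 and -0.10. The spread is on the scale of 1 standard deviation, so passing it does not single a gene out. It also leaves out any difference shared by both mutant SCL arrays, such as one present under both cytokines. The share of all genes beyond their spread was not computed. DUSP5 and ETV5 are singled out here after their values were seen.

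Some array measures differed between the mutant SCL and vector arrays as well. The beta-actin 3' minus 5' difference was 3.33 with mutant SCL under SF and 3.01 under Epo, against 1.89, 2.74 and 2.63 in vector cells under SF, Epo and GM-CSF, so the 2 mutant SCL arrays were the highest of the 5. The 28S signal was 0.53 higher with mutant SCL under SF and 0.89 higher under Epo, and the hybridization controls were 0.55 and 0.19 higher, but the 28S signal of the vector GM-CSF array (7.82) was above that of both mutant SCL arrays (7.07 under SF and 6.69 under Epo). Their part in the DUSP5 difference was not tested. Set against the vector GM-CSF array, which differs in cytokine too, DUSP5 was lower by -0.34 in the mutant SCL cells given SF and by -0.32 in those given Epo.

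**Figure D2:**
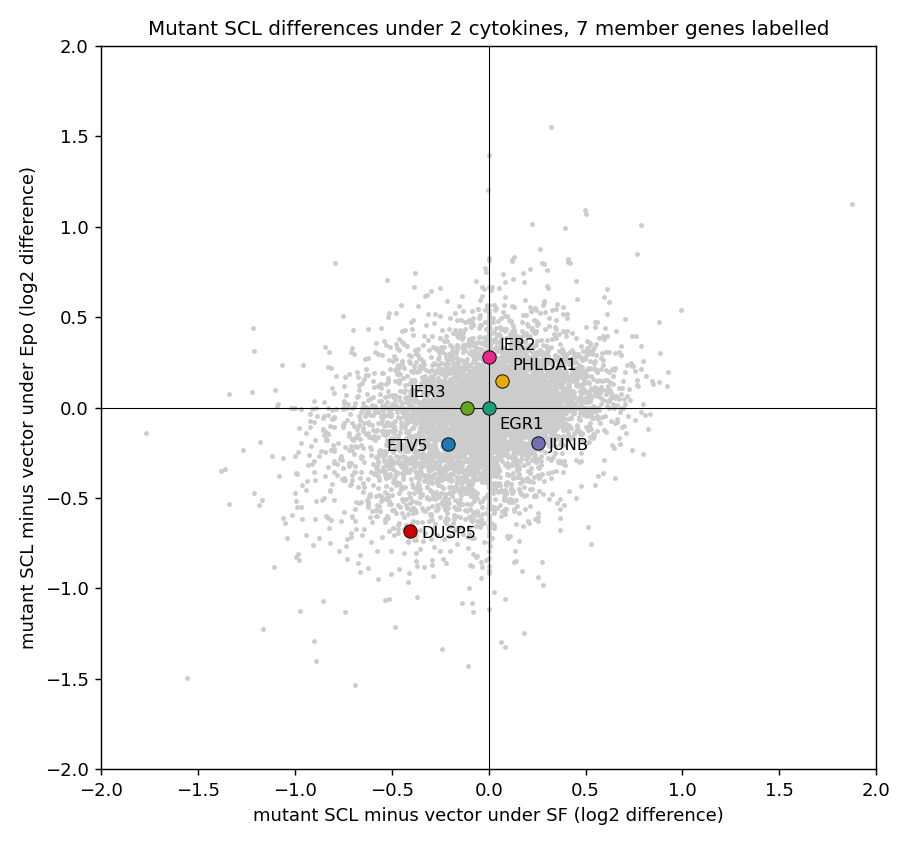
Log2 difference of mutant SCL minus vector under SF (horizontal axis) and under Epo (vertical axis), with grey points for the 8272 genes compared under both and coloured points for the 7 ERK pathway genes among them. DUSP5 lies at -0.41 and -0.68, toward the lower left edge of the cloud, and the other 6 lie within it.

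SF and Epo were each set against GM-CSF in vector cells to ask which genes differ between cytokines. Both comparisons use the same GM-CSF array and are therefore not separate evidence. For SF, 8 genes could be compared and 0 reached 2-fold, against 0.573% of 8553 genes higher and 0.0234% lower. The values were 0.25 for IER2, 0.22 for ETV5, 0.08 for EGR1, 0.06 for DUSP5, -0.08 for FOS, -0.16 for JUNB, -0.23 for IER3 and -0.25 for PHLDA1, with a median of -0.01. FOS, IER3, JUNB and PHLDA1 were thus the 4 genes with lower signals under SF than under GM-CSF. With quantile normalization IER2 and ETV5 gave -0.01 each, so neither direction held. EGR1 gave 0.16 with quantile normalization and 0.20 with loess, and was the highest of the genes compared in both.

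For Epo, 0 of the same 8 genes reached 2-fold, against 3.46% of 8581 genes higher and 0.117% lower. DUSP5 was the highest at 0.36 and PHLDA1 the lowest at -0.40. IER2 gave 0.15, EGR1 0.08 and ETV5 0, while FOS gave -0.08, JUNB -0.15 and IER3 -0.23, and the median was -0.04. The median of the 8 became -0.21 with quantile normalization. With loess only 7 of these genes were compared, and their median was -0.15. That of all genes was -0.05 and 0.02 in these settings. IER2 turned to -0.20 with quantile normalization and to -0.15 with loess, ETV5 gave -0.32 and -0.28, and EGR1 0.17 and 0.21. The FOS values in both comparisons were limited by the floor, and the deposited values differed by -0.15 for SF and -0.33 for Epo. On these arrays the 28S signal differed from that under GM-CSF by -1.28 for SF and by -2.02 for Epo, and the hybridization controls differed by -0.51 and -0.95; their part was not tested.

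SF was also set against Epo directly. In vector cells 0 of 7 genes reached 2-fold, against 0.012% of 8312 genes higher and 0.0241% lower. DUSP5 was lower under SF by -0.30 and ETV5 higher by 0.22, and all 3 ETV5 probe sets were higher under SF in these cells (0.22, 0.46 and 0.11). PHLDA1 gave 0.15, IER2 0.10 and JUNB -0.01, and EGR1 and IER3 gave 0. Of all genes, 6.20% were at least as high as ETV5 and 9.24% at least as low as DUSP5.

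In mutant SCL cells 0 of 7 genes reached 2-fold between SF and Epo, against 0.0236% of 8472 genes higher and 0.201% lower. JUNB was higher under SF by 0.44, or 1.35-fold, and 3.73% of genes were at least as high. ETV5 gave 0.22, 0.00 and 0.10 in 203349_s_at, 203348_s_at and 216375_s_at. DUSP5, which differed between the cytokines in vector cells, gave -0.02 here, PHLDA1 gave 0.07, IER3 -0.11, IER2 -0.18 and EGR1 0. The hybridization controls were 0.79 higher on the SF array than on the Epo array in these cells, and their part in the JUNB difference was not tested.

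**Figure D3:**
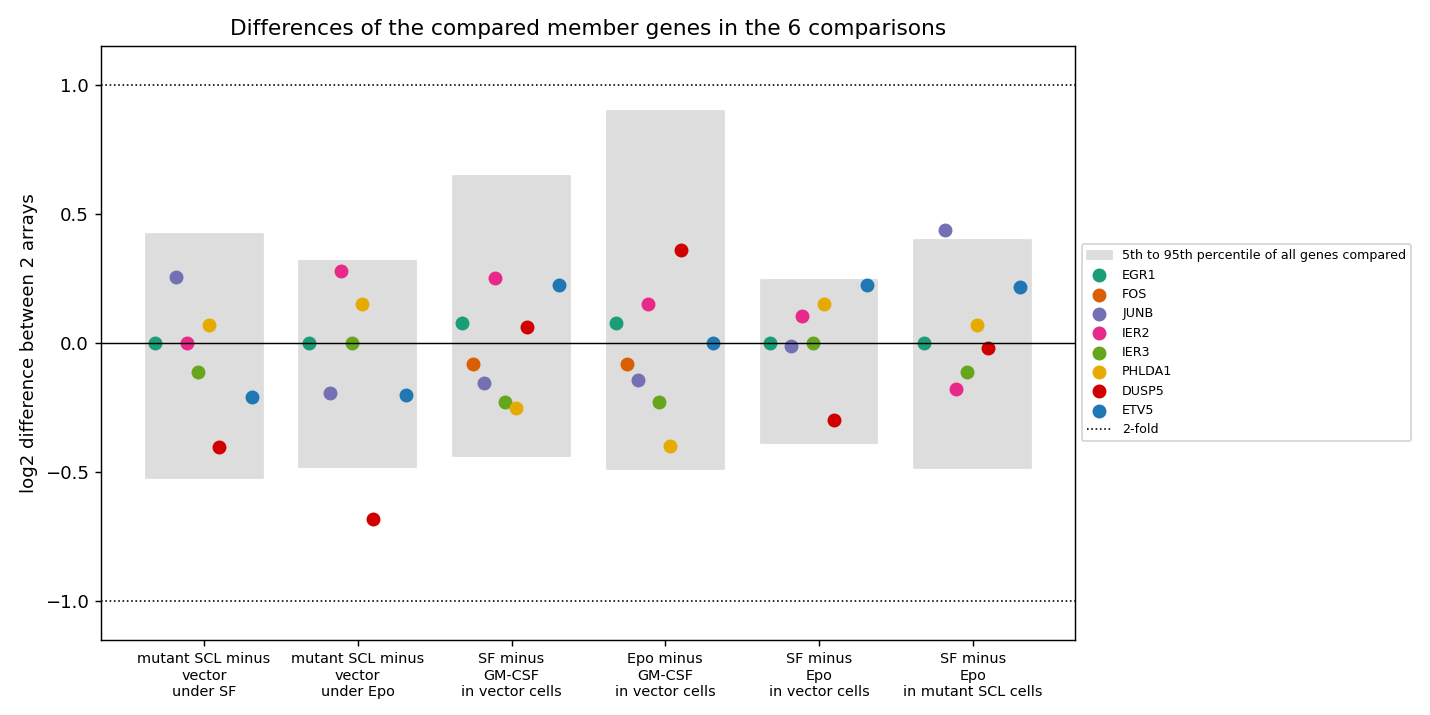
Log2 differences between 2 arrays (vertical axis) of the ERK pathway genes that could be compared, in each of 6 comparisons (horizontal axis), 1 point per gene. Grey boxes span the 5th to the 95th percentile of all genes compared, and no point reaches the dotted 2-fold lines. DUSP5 under Epo with mutant SCL (-0.68) and JUNB between SF and Epo in mutant SCL cells (0.44) are the points outside the grey boxes.

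Other genes of the pathway were read from 3 lists. Of 22 further immediate early genes, 20 could be read and 14 or 15 entered each comparison, and 0 reached 2-fold in any of the 6. Their medians were -0.02 and 0 for mutant SCL against vector under SF and Epo, -0.08 and -0.10 for SF and Epo against GM-CSF, and 0.02 and 0 for SF against Epo in vector and mutant SCL cells. Relative to GM-CSF, MYC was the highest of the list under SF (0.49, and 0.24 to 0.56 over 7 alternatives) and under Epo (0.55, and 0.19 to 0.64). The lowest were NR4A1, an orphan nuclear receptor gene, under SF (-0.32, and -0.51 to -0.25) and JUND, an AP-1 subunit gene, under Epo (-0.72, and -1.04 to -0.31, so that it passed 2-fold in an alternative). JUND read 9.46 in mutant SCL cells with SF and 9.88 with Epo, against 9.84 under SF, 9.22 under Epo and 9.94 under GM-CSF in vector cells. Its vector Epo array was the lowest of the 5. With mutant SCL it was the highest of the list under Epo at 0.66, which ran from 0.21 to 0.82 over the alternatives, and gave -0.39 under SF, which ran from -0.44 to -0.08. FOSL1, another AP-1 subunit gene, was the highest under SF at 0.31. TRIB1 was the lowest of the list with mutant SCL under both cytokines, at -0.47 under SF and -0.29 under Epo, and the Epo value ran from -0.32 to -0.02. Between SF and Epo the extremes were JUND (0.63, and 0.32 to 0.73 over the alternatives) and HBEGF (-0.26, and -0.27 to -0.14) in vector cells. In mutant SCL cells they were FOSL1 (0.44) and JUND (-0.42, and -0.46 to 0.03, so that its sign turned).

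Of 14 further feedback genes 11 could be read, 7 or 8 entered each comparison, and 0 reached 2-fold. Their medians were 0.02 and 0.03 for mutant SCL against vector under SF and Epo, -0.05 and -0.11 for SF and Epo against GM-CSF, and 0.05 and 0 for SF against Epo in vector and mutant SCL cells. The extremes with mutant SCL under SF were ETV4, the PEA3 group relative of ETV5, at 0.35 and the phosphatase gene DUSP2 at -0.27, and those under Epo were DUSP7 at 0.37 and SPRY4 at -0.12. DUSP2 gave -0.05 under Epo, which ran from -0.08 to 0.0034 over 7 alternatives. DUSP7, another ERK phosphatase gene, gave 0.14 under SF, its Epo value fell as low as 0.18 in the alternatives, and its other probe set gave 0.09 under SF and -0.0019 under Epo. Relative to GM-CSF, DUSP2 was the highest under SF (0.19, and 0.05 to 0.26) and under Epo (0.35, and 0.16 to 0.44), and the Sprouty gene SPRY1 the lowest under SF (-0.36, and -0.36 to -0.13) and under Epo (-0.34, and -0.34 to -0.13). Between SF and Epo ETV4 was the highest and DUSP2 the lowest, at 0.21 and -0.16 in vector cells and at 0.53 and -0.38 in mutant SCL cells. ETV4 and the brightest ETV5 probe set had opposite signs with mutant SCL under SF (0.35 and -0.21).

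Of 26 genes on the route from the receptor to ERK and its substrates, 21 could be read and 19 or 20 entered each comparison. MAP2K1, which encodes the ERK-activating kinase MEK1, was the 1 gene at 2-fold in any comparison, being 1.30 higher under Epo than under GM-CSF. That is 1 of 19 genes, where 3.46% of 8581 genes were 2-fold or more higher. The share of all genes at least as high as MAP2K1 was not computed. It read 8.16 in mutant SCL cells with SF and 8.13 with Epo, against 8.14 under SF, 8.69 under Epo and 7.38 under GM-CSF in vector cells, and over 7 alternatives its Epo difference ran from 0.96, short of 2-fold, to 1.39. KIT, the gene of c-Kit itself, was the lowest of this list with mutant SCL under SF (-0.70) and gave -0.40 under Epo. PTPN11, which encodes the phosphatase SHP2, gave -0.61 under SF and -0.35 under Epo, which ran from -0.66 to -0.32 and from -0.38 to -0.10 over the alternatives, with -0.53 and 0 in its other probe set. Other genes of the route were higher with mutant SCL under SF. RPS6KA2, which encodes a ribosomal S6 kinase, was the highest at 0.53 (0.28 to 0.53 over the alternatives). The scaffold gene KSR1 gave 0.50 in both of its probe sets, and the kinase gene ARAF gave 0.36. These rises were not repeated under Epo, where RPS6KA2 gave 0, KSR1 0.03 and -0.06 in its probe sets, and ARAF -0.10. Under Epo the highest was RPS6KA1 at 0.14 and the lowest MAP2K1 at -0.55. Relative to GM-CSF, MAP2K1 was also the highest under SF at 0.76, and SOS2, which encodes a RAS exchange factor, the lowest under SF and under Epo at -0.54 each. Between SF and Epo the extremes were RPS6KA1 (0.28) and MAP2K1 (-0.55) in vector cells, and SOS2 (0.45) and SOS1 (-0.78, and -0.82 to -0.37 over the alternatives) in mutant SCL cells, where the other SOS1 probe set gave 0.05. The medians of the list were 0 and -0.01 for mutant SCL against vector under SF and Epo, 0.10 and 0 for SF and Epo against GM-CSF, and -0.01 and -0.02 for SF against Epo in vector and mutant SCL cells.

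**Figure D4:**
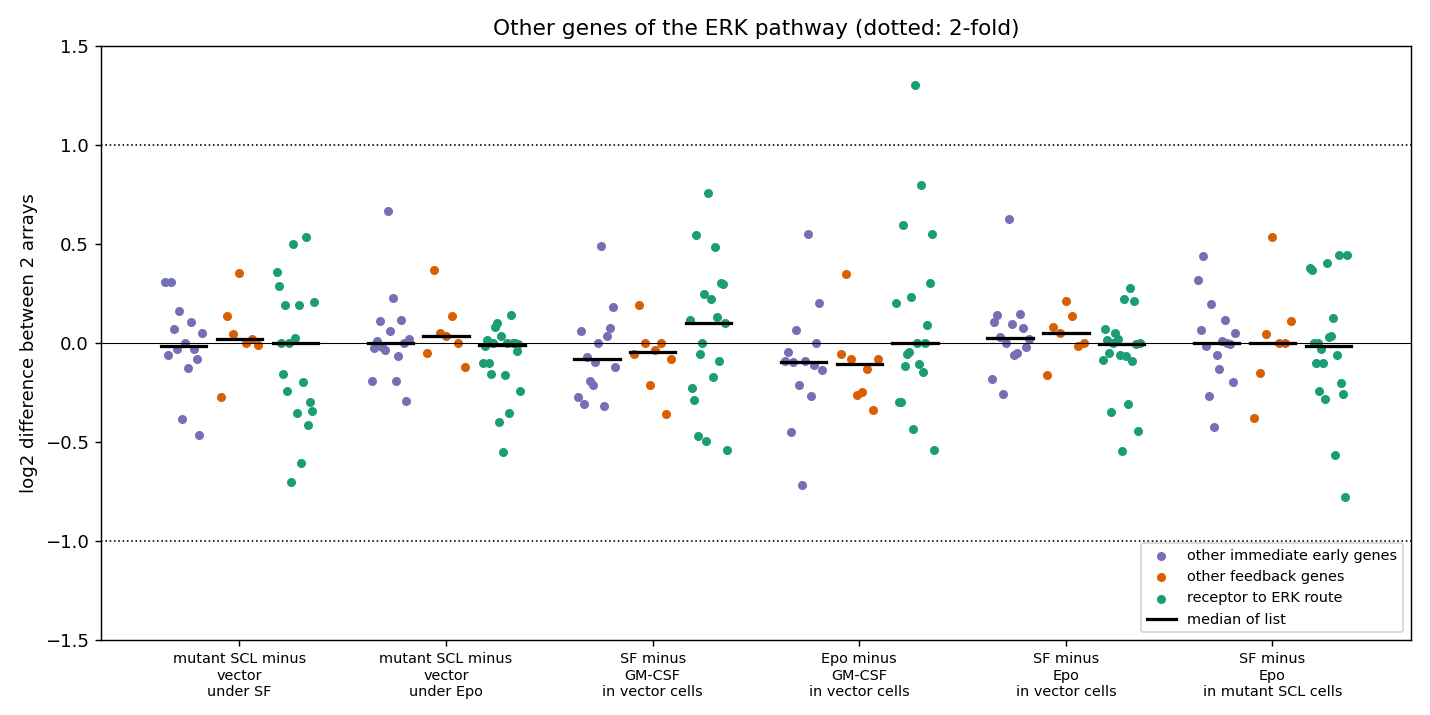
Log2 differences between 2 arrays (vertical axis) of other immediate early genes, other feedback genes and genes on the route from receptor to ERK, in each of 6 comparisons (horizontal axis), 1 point per gene with black bars at the list medians. The medians lie between -0.11 and 0.10, and MAP2K1, at 1.30 for Epo minus GM-CSF, is the point beyond 2-fold.

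DUSP5, having the widest range of the 7 genes, was taken to look for similar profiles among the 7918 genes that exceeded the floor everywhere. By the root mean square distance between profiles centred on their own means, the nearest were TNIK, a kinase gene (0.03), AP1G1, a subunit gene of a clathrin adaptor (0.07), RHOBTB3 (0.08), KIFAP3, a kinesin-associated protein gene (0.08), and TCTN3 (0.09). TNIK read 5.91 in mutant SCL cells with SF and 5.85 with Epo, against 6.30 under SF, 6.58 under Epo and 6.25 under GM-CSF in vector cells. As in DUSP5, both mutant SCL arrays of TNIK were below all 3 vector arrays and vector Epo was the highest. With 5 arrays and 7918 genes, near matches are found for many profiles, and nothing about shared control follows.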

How the data were processed

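Per the labels' protocols, RNA was isolated with silica columns and biotin-labelled by a small sample method of the array maker. The table holds log2 probe set signals deposited by the authors, from 2.08 to 13.77; the log2 scale was read from the values. Background correction, normalization and summary method are not given in the sources used here. The column medians differed by 0.09 (tolerance 0.15), so values were used as deposited. Of 22283 probe sets, 68 were array controls and 19065 others had a single symbol in the platform's annotation. The brightest probe set on average stood for a gene. Values below 4.45 were raised to that floor, and genes with 1 of the 2 compared arrays above it were compared and counted at a log2 difference of 1. The spread came from the median absolute deviation in 10 signal bins. The counting was tested on simulated data. Named were the 10 genes, the counted or extreme genes of the 3 lists and the 5 nearest profiles; JUND, KIT, PTPN11, KSR1, ARAF, DUSP2, DUSP7 and TNIK are described further after their values were seen. Genes and lists were chosen with earlier results of these data known. Alternatives were quantile, median and loess normalization (limma 3.58.1, R 4.3.3), mean probe sets, floors at the 30th and 50th percentile or none, and counting at 1.5-fold. Python 3.11.15 and pandas 2.3.3 were used. The number of arrays, 1 per group, limits the precision.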

Additional observations from a re-analysis of the deposited data

Results flagged for a closer look

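Of the 10 probe sets above the floor on at least 1 array, 2 had a mutant SCL difference of opposite directions under SF and Epo. Each difference had 1 array on each side, and the difference between the cytokines was not tested. Of 8272 genes compared under both cytokines, 25% were below 0 under both and 23.6% above 0 under both. The rest went in opposite directions or gave 0 under at least 1 cytokine. The share with opposite directions was not computed, so 2 of 10 cannot be called particular to these probe sets. For JUNB (201473_at) mutant SCL minus vector was 0.25 under SF and -0.19 under Epo, a difference of 0.45 between them. For the second ETV5 probe set (203348_s_at) it was -0.18 under SF and 0.29 under Epo, a difference of -0.46, while 203349_s_at and 216375_s_at of ETV5 gave -0.01 each for the same quantity.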

How the results depend on the processing

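Over 8 alternatives and 6 comparisons the number of these genes counted was 0 in 47 of 48 cases. At 2-fold few of all genes were counted either. As deposited they ran from 3 of 8312 (SF minus Epo in vector cells) to 307 of 8581 (Epo minus GM-CSF). A count of 0 at 2-fold is therefore not particular to these genes. At 1.5-fold more of all genes were counted, from 125 of 8312 to 1344 of 8581 in the same comparisons. The exception among the 48 was mutant SCL against vector under Epo counted at 1.5-fold, where the number was 1 (DUSP5). Of 292 single differences, 282 moved by less than the estimated spread. Of 42 medians, 38 moved by less than the spread of a median of independent genes. Those that moved further were Epo minus GM-CSF (-0.04, against -0.21 with quantile normalization and -0.15 with loess), SF minus GM-CSF with the floor at the 30th percentile (-0.093) and mutant SCL against vector under Epo with the floor at the 50th percentile (-0.097). In 5 of the 292 the sign turned: IER2 and ETV5 for SF minus GM-CSF (-0.01 each with quantile normalization, and -0.0007 for ETV5 with loess) and IER2 for Epo minus GM-CSF (-0.20 with quantile normalization, -0.15 with loess). The cause was not tested. DUSP5 with mutant SCL ran from -0.46 to -0.41 under SF and from -0.71 to -0.65 under Epo over 7 alternatives. The brightest ETV5 reading under Epo became -0.0067 with the mean of its probe sets. With no floor 10 genes were compared, with a floor at the 50th percentile 6 and with loess 7. Loess and the limit for medians were chosen after seeing the data. No paired analysis was possible because each group has 1 replicate number, so numbers pair nothing; the mutant SCL differences within each cytokine stand side by side. Single arrays and faint signals limit what can be seen of FOS, DUSP6 and SPRY2.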
